A study of Arabidopsis thaliana with 12 samples.

Results

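CSA1 (CONSTITUTIVE SHADE-AVOIDANCE 1, locus AT5G17880) is an Arabidopsis gene whose array signal was low in the sco3phyb double mutant and several-fold higher in the phyb and sco3 single mutants and in Col-0. It was chosen by its measured log2 signal, low in sco3phyb and in no other genotype, so its levels in the 4 genotypes are given as a description and carry no test. CSA1 was read by 1 probe set among 22746 probe sets on the array, of which 13513 could be given 1 gene. In the TAIR10.1 annotation the gene spans chr5:5908834-5913317, a length of 4484 bases.

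CSA1 encodes an intracellular immune receptor of the TIR-NB-LRR class, in which a TIR signalling domain is joined to a nucleotide-binding domain and a leucine-rich repeat domain. Such receptors watch over other plant proteins and set off immune signalling and cell death through EDS1, its partners and helper receptors. CSA1 acts as a pair with its neighbour CHS3 (also called DAR4), a TIR-NB-LRR protein with a DA1-like end, and the pair guards the co-receptor BAK1 and the BIR proteins bound to it. The gene took its name from a mutant whose seedlings behaved as if shaded without shade, a behaviour also known of plants that lack phytochrome B.

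The arrays were Affymetrix ATH1 arrays of whole seedlings, grown for 4 days on MS agar with 16 h of light and 8 h of dark per day. The 4 genotypes were the double mutant sco3phyb, the single mutants phyb and sco3, and Col-0, the line without either mutation, with 3 arrays each that the labels call biological replicates. PHYB encodes phytochrome B, a receptor of red and far-red light, and SCO3 encodes a protein needed for normal chloroplasts in cotyledons. The labels give no allele for either mutation, and SCO3 and PHYB had no named probe set, so the mutated genes themselves were not analysed here. All values below are log2 RMA signals as deposited, unless a fold is named. The green-tissue markers RCA, the activase of Rubisco, and LHCB4.2, a light-harvesting antenna protein, had log2 signals of at least 11.1 on every array. The arrays differed little in scale: their medians lay between 4.53 and 4.74 and their lower quartiles between 2.62 and 2.77. Seedlings were measured whole, so fewer cells with CSA1 transcript and less transcript per cell cannot be told apart.

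The log2 signal of CSA1 was 2.49, 2.09 and 2.35 in the sco3phyb replicates. It was 5.39, 5.06 and 4.98 in phyb, 5.69, 5.57 and 5.86 in sco3, and 5.63, 5.77 and 5.64 in Col-0. The 3 sco3phyb arrays thus lay far below all 9 others, the phyb arrays came next, and the sco3 and Col-0 arrays overlapped at the top. The genotype means were 2.31 ± 0.20 in sco3phyb, 5.14 ± 0.21 in phyb, 5.71 ± 0.15 in sco3 and 5.68 ± 0.08 in Col-0 (SD, n = 3 each). The step between sco3phyb and phyb exceeded the spread within either genotype, which the choice of CSA1 by this pattern favours. The order of sco3 and Col-0 was within their spread.

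**Figure D1:**
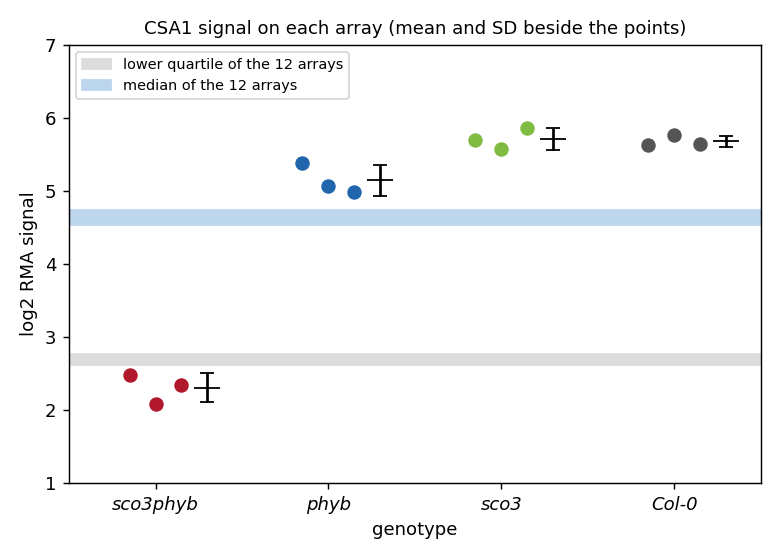
Log2 RMA signal of CSA1 on each of the 12 arrays, by genotype, with points for single arrays, bars for the mean ± SD (n = 3) and shaded bands for the range of the arrays' medians and lower quartiles. The sco3phyb arrays sit between 2.09 and 2.49, and the other 9 arrays between 4.98 and 5.86.

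The deposited values carry no detection call, so a CSA1 signal above background was not shown for sco3phyb. The folds and differences that involve sco3phyb therefore compare array signals and do not measure the size of a transcript difference. On that scale, the CSA1 signal in sco3phyb was lower by 10.3-fold than in Col-0 (a log2 difference of -3.37 ± 0.14, moderated SE of the limma fit). It was lower by 10.6-fold than in sco3 (-3.40 ± 0.14) and by 7.14-fold than in phyb (-2.84 ± 0.14). The sco3 mutation alone came with almost no difference from Col-0, at 0.03 ± 0.14. The phyb mutation alone came with a signal 1.45-fold lower than Col-0 (-0.53 ± 0.14), and the phyb range of 4.98 to 5.39 did not overlap the Col-0 range of 5.63 to 5.77. The signal difference between sco3phyb and phyb was thus -2.84, and that between sco3 and Col-0 0.03. These 2 signal differences stood -2.87 ± 0.19 apart on the log2 scale, a value that rests on the sco3phyb signal near the floor. All 5 pairwise comparisons reuse the same arrays, so they are not separate pieces of evidence.

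In sco3phyb the CSA1 signal lay near the floor of the array. Only 18.9%, 7.96% and 17.1% of all probe sets had a lower signal on the 3 sco3phyb arrays, while the shares were 58.5%, 54.3% and 53.2% in phyb, 64.3%, 62.6% and 66.3% in sco3, and 63.1%, 65.1% and 62.9% in Col-0. CSA1 was thus a mid-range signal in 3 genotypes and lay under the lower quartile of the array in the fourth. A probe set's signal depends both on the amount of transcript and on how well that transcript binds the probes, and these arrays do not tell the 2 apart.

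The gap between the highest sco3phyb array (2.49) and the lowest of the other 9 arrays (4.98, a phyb array) was 2.50. Of the 13513 probe sets with 1 gene, CSA1 had the widest such gap, and of all 22746 it came in place 2, behind a probe set without a gene name, with 2.56. The rank rests on the gap, not on the size of the difference from Col-0, where CSA1 came in place 7 of all probe sets. It came in place 7 against sco3 as well and in place 16 against phyb. The next named genes by gap were AT5G23830 with 2.45, AT5G02740 with 2.34 and AT5G45500 with 2.30, so CSA1 headed a group of close values and did not stand by itself.

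The genes whose pattern was most like that of CSA1 were found by the root mean square difference over the 12 arrays, after each gene's own mean had been taken away. A small value means that a gene differed between arrays by about as much as CSA1 did. The 8 closest of the 13512 other probe sets with 1 gene had values of 0.353 to 0.598, against a median of 1.41, and 67 were under 1. They were AT5G05750, AT5G02740, AT5G45500, AT5G26270, ccsA, LUL1, AT5G56910 and AT5G56380. Their Pearson correlation with CSA1 over the 12 arrays, which share their genotypes, was 0.94 to 0.98. Since likeness to CSA1 chose them, their low signal in sco3phyb is a description.

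Over all probe sets, one without a gene name came closest, at 0.269, and it was left out of this list. AT5G05750 came closest of the named genes, at 0.353. Its signals were 3.44, 3.06 and 3.29 in sco3phyb, 5.83, 5.65 and 5.56 in phyb, 6.47, 7.19 and 7.08 in sco3, and between 6.92 and 7.10 on the 3 Col-0 arrays. It shared with CSA1 the place of phyb between sco3phyb and the other 2 genotypes, and its phyb arrays lay further below Col-0 (-1.33) than those of CSA1 did. AT5G02740, at 0.370, gave 3.36, 3.52 and 3.46 in sco3phyb, 6.21, 6.15 and 6.20 in phyb, 5.85, 6.26 and 6.04 in sco3, and 6.35, 6.44 and 6.20 in Col-0. For that gene the phyb, sco3 and Col-0 arrays overlapped one another.

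Of the remaining 6, AT5G45500 averaged 3.89 in sco3phyb, 7.23 in phyb, 6.77 in sco3 and 7.27 in Col-0. AT5G26270 averaged 3.97 in sco3phyb, 6.40 in phyb, 6.30 in sco3 and 7.14 in Col-0. LUL1, a ubiquitin ligase of the LOG2-like family, averaged 4.06 in sco3phyb, 5.96 in phyb, 5.98 in sco3 and 6.38 in Col-0. In AT5G45500 the phyb mean was above the sco3 mean, the reverse of CSA1. In AT5G26270 the phyb arrays, at 5.89 to 6.99, enclosed the sco3 arrays, at 6.16 to 6.39, and in LUL1 the phyb and sco3 means were nearly equal. AT5G56910 (4.46 in sco3phyb, 6.36 in Col-0) and AT5G56380 (2.67 in sco3phyb, 4.49 in Col-0) had smaller steps, of -1.90 and -1.82 between sco3phyb and Col-0. The member that is not nuclear is ccsA, a plastid gene whose product attaches haem to c-type cytochromes. Its signals were 8.99, 8.63 and 8.76 in sco3phyb, against 10.94, 10.77 and 10.87 in phyb, 11.23, 10.90 and 10.93 in sco3, and 10.95, 11.13 and 10.53 in Col-0. The 3 sco3phyb arrays of ccsA lay below all 9 others, as for CSA1.

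**Figure D2:**
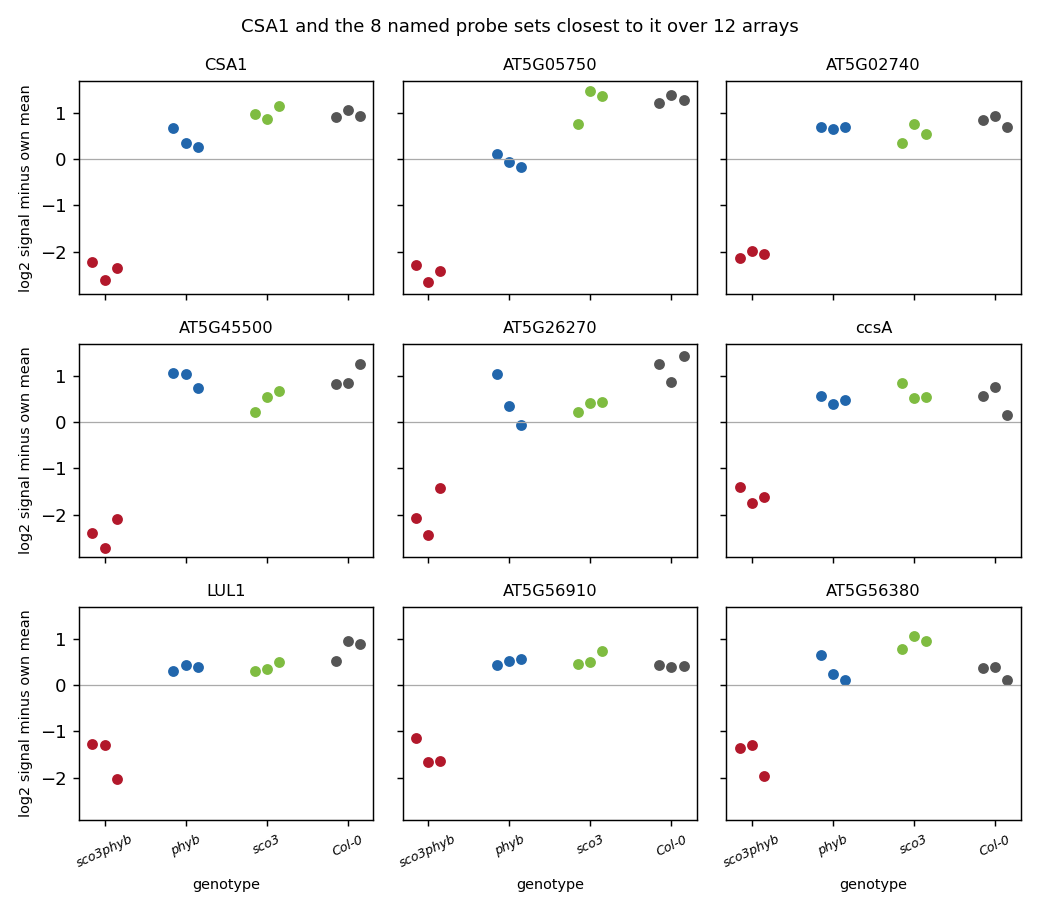
Log2 RMA signal on the 12 arrays, less each gene's own mean over them, for CSA1 and the 8 named genes closest to it by root mean square difference. All have their lowest values on the 3 sco3phyb arrays.

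A feature that likeness did not use is position. Of these 8 genes, 7 lie on chromosome 5, as CSA1 does, and ccsA is in the plastid genome. For comparison, chromosome 5 held 2982 of the 13217 measured genes with a nuclear position. With Pearson correlation as the measure, 6 of the 8 closest genes were on chromosome 5, and with the 4 genotype means it was 5; each of these lists shared 6 genes with the 8 above. They do not lie beside CSA1: LUL1 starts at 760319 and AT5G56910 at 23022862 on chromosome 5, which puts them 5149 kb before and 17114 kb after CSA1.

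Every gene with a position on chromosomes 1 to 5 was then counted as low in sco3phyb alone where the gap was at least 1 on the log2 scale, a limit set with these data known. On chromosome 5 this held for 12 of 2982 genes (0.402%), CSA1 among them, and on chromosomes 1 to 4 for 2 of 10235 (0.0195%). These 2 genes, AT1G29090 and AT1G12400, are both on chromosome 1. Beyond these chromosomes, the plastid gene ccsA was low in sco3phyb alone as well, with a gap of 1.55. So were 6 of the 9233 probe sets that could not be given 1 gene, with gaps of 1.04 to 2.56, and where these lie was not analysed here. The limit had AT5G14450 just inside, with a gap of 1.02, and AT1G69550 just outside, with 0.94. In the opposite direction, 6 chromosome 5 genes (0.201%) and 11 on chromosomes 1 to 4 (0.107%) were high in sco3phyb alone. For phyb alone the counts of low genes were 5 on chromosome 5 (0.168%) and 23 on chromosomes 1 to 4 (0.225%), while sco3 alone had 1 over all 5 chromosomes and Col-0 alone had 0. All of these shares come from the readout that picked CSA1, so they are counts with no test.

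**Figure D3:**
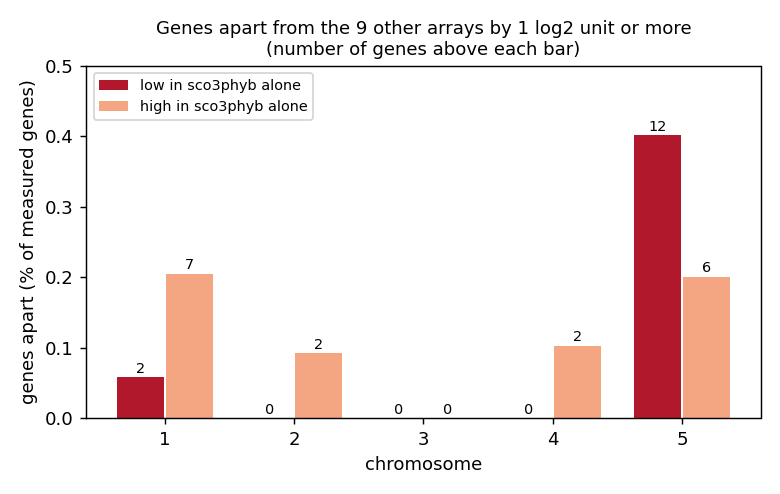
Percent of the genes of each nuclear chromosome whose 3 sco3phyb arrays lay at least 1 on the log2 scale below, or above, all 9 other arrays. The low share is 0.402% on chromosome 5, where CSA1 lies, and 0.106% over all 5 chromosomes.

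Along chromosome 5 the 12 genes were spread over both arms. In stretches of 5 Mb counted from position 1 their numbers were 5, 3, 0, 1, 3 and 0, and CSA1 was 1 of the 3 in the second stretch. The nearest of them to CSA1 were AT5G14450, 1250.4 kb before it, and AT5G23830, 2125 kb after it. No gene with a named probe set between those 2, other than CSA1, was low in sco3phyb alone.

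None of the closest neighbours of CSA1 that could be named on the array was low in sco3phyb alone, and probe sets without a gene name could not be placed. CHS3 (DAR4), its partner receptor, lies 3544 bases beyond CSA1, and PSRP6, a plastid ribosomal protein gene, 369 bases before it. No probe set was named for either gene, nor for CAX7 and AT5G17900, so none of these 4 was analysed here. The 10 nearest measured genes on each side spanned 5822881 to 5997498. Of these 20 genes, 4 (20.0%) passed the test in sco3phyb against Col-0, 3 higher and 1 lower (limma, adjusted p under 0.05), while 29.7% of all probe sets passed, 16.8% higher and 12.9% lower. Their differences ran between -0.71 and 0.67, and their median was 0.05, against -0.02 over all probe sets. CSA1, at -3.37, was outside that range, which its choice for a low sco3phyb signal favours.

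Against sco3 the count among these 20 neighbours was 4, all higher in sco3phyb, where 29.3% of all probe sets passed, 15.9% higher and 13.4% lower. Against phyb it was 7 (35.0%), with 3 higher and 4 lower in sco3phyb, where 14.9% of all probe sets passed, 7.76% higher and 7.18% lower. The lowest of these differences was -1.54, at AT5G17700, and CSA1, chosen for its low sco3phyb signal, stood at -2.84. In sco3 against Col-0 none passed, where 4.97% of all probe sets did, 2.81% higher and 2.16% lower. In phyb against Col-0, 6 passed, 4 higher and 2 lower, where 33.4% of all probe sets did, 17.6% higher and 15.9% lower. The sco3 effect differed between the phyb background and intact PHYB for 4 of the 20 (20%), 1 higher and 3 lower. Over all probe sets 5.03% passed that test, 2.65% higher and 2.38% lower.

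The 3 nearest measured genes before CSA1 were AT5G17850, AT5G17840 and AT5G17830, and the 3 after it AT5G17910, AT5G17930 and AT5G17950. AT5G17850, 7676 bases away, averaged 5.25 in sco3phyb, 5.53 in phyb, 4.88 in sco3 and 5.11 in Col-0, and AT5G17840 averaged 8.50 in sco3phyb, 8.16 in phyb, 8.55 in sco3 and 8.49 in Col-0. Neither had the drop of CSA1. AT5G17930 rose in sco3phyb by 0.64 ± 0.16 against Col-0 (limma, adjusted p = 0.00781). AT5G17910, 13949 bases away, gave 4.54, 4.72 and 4.76 in sco3phyb, against 5.60, 5.44 and 5.33 in phyb, 4.72, 4.57 and 4.83 in sco3, and 4.81, 4.94 and 4.86 in Col-0. It was raised in phyb, by 0.58 ± 0.11 over Col-0 (limma, adjusted p = 0.00142), and it was lower in sco3phyb than in phyb by a log2 difference of -0.78 ± 0.11 (adjusted p = 5.03e-04). Its sco3phyb arrays overlapped those of sco3.

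Over a wider stretch, the 100 nearest measured genes on each side spanned 5205869 to 6662463. Of these 200, 69 (34.5%) passed the test in sco3phyb against Col-0, 37 higher and 32 lower, where 29.7% of all probe sets passed, 16.8% higher and 12.9% lower. Their differences ran between -1.52 and 2.29. None of them was low in sco3phyb alone. After each array was centred on its median, 82 passed, 30 higher and 52 lower, and over all probe sets the higher share of the calls was 36.6% after centring, against 56.7% as deposited. As deposited, 73 (36.5%) passed against sco3, where 29.3% of all probe sets did. Against phyb 46 (23%) passed, 28 higher and 18 lower, where 14.9% of all did. In sco3 and phyb against Col-0, 4% and 34% passed, where 4.97% and 33.4% of all did. The sco3 effect differed between the phyb background and intact PHYB for 17 (8.5%), where 5.03% of all passed.

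**Figure D4:**
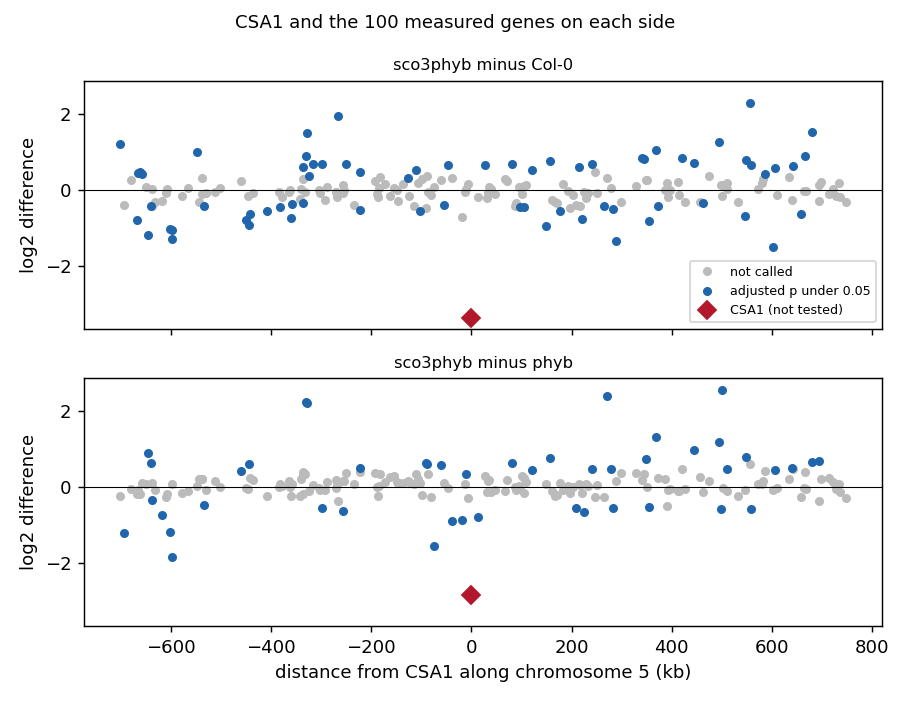
Log2 difference of sco3phyb minus Col-0 (upper panel) and sco3phyb minus phyb (lower panel) for CSA1 and the 100 nearest measured genes on each side, by their distance from CSA1 in kb, with blue points for an adjusted p under 0.05. CSA1, which was chosen for its low sco3phyb signal, stands at -3.37 and -2.84. The lowest of the 200 neighbours stands at -1.52 and -1.83.

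CSA1 was also set beside the other TIR receptor genes, a family list of 87 genes written after some of these values were known. A named probe set was found for 57 of them. In sco3phyb against Col-0, 10 of the 57 (17.5%) passed the test, 7 higher and 3 lower, where 29.7% of all probe sets passed, 16.8% higher and 12.9% lower. The median of the 57 was -0.06, against -0.02 over all probe sets. After centring each array on its median, 17 passed, 5 higher and 12 lower, while 7774 of all 22746 probe sets passed, 2847 higher and 4927 lower. With a further quantile normalization 9 passed, 5 higher and 4 lower, while 6748 of all probe sets did, 3366 higher and 3382 lower. The split of the family calls thus depends on the scaling, and so does the split over all probe sets. The number of measured TIR genes with as low a difference as CSA1 was 0 in sco3phyb against Col-0, 0 against sco3 and 0 against phyb. None of the 57 was low in sco3phyb alone. These counts are limited by the floor, since the lowest signal on each array was between 1.44 and 1.61. TIR genes such as AT1G17615 and AT4G08450, with Col-0 means of 2.01 and 2.05, could not fall as far as CSA1 or show a gap of 1. How many of the 57 lay that low was not counted, so the counts do not set CSA1 apart from such genes.

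Against sco3, 10 of the 57 passed, 1 higher and 9 lower in sco3phyb, where 29.3% of all probe sets passed. After centring there were 20, 1 higher and 19 lower, while 9356 of all 22746 probe sets passed, 2472 higher and 6884 lower. Against phyb, 3 (5.26%) passed, 1 higher and 2 lower, where 14.9% of all probe sets did. In phyb against Col-0, 7 (12.3%) passed, 3 higher and 4 lower, where 33.4% of all probe sets did. After centring there were 15 in phyb against Col-0, 2 higher and 13 lower, while 9646 of all probe sets passed, 2979 higher and 6667 lower. That split too depends on the scaling, as does the split over all probe sets. In sco3 against Col-0, 4 (7.02%) passed, all higher, where 4.97% of all probe sets did.

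AT1G69550 had the lowest difference of the family from Col-0 after CSA1. Its signals were 1.78, 2.03 and 2.22 in sco3phyb, 4.28, 4.24 and 3.88 in phyb, 4.53, 4.63 and 4.16 in sco3, and in Col-0 3.16 on 1 array and at least 4.16 on the other two. As with CSA1, the 3 sco3phyb arrays were below all others, though 1 Col-0 array, at 3.16, came close to them. Like CSA1, it was under the lower quartile of the arrays in sco3phyb, so its differences are those of signals near the floor. It fell in sco3phyb by 1.83 ± 0.25 on the log2 scale against Col-0 (limma, adjusted p = 1.31e-04) and by 2.12 ± 0.25 against phyb (adjusted p = 1.03e-04). The difference between its sco3 effects in the phyb background and with intact PHYB passed the test too, at -2.72 ± 0.35 (adjusted p = 7.36e-04), where 5.03% of all probe sets passed, 2.65% higher and 2.38% lower. It was the 1 of the 57 that passed that test.

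Of the other TIR genes, AT1G72890 fell by 1.44 ± 0.15 against Col-0 (limma, adjusted p = 1.77e-05) and AT4G19530 fell by 1.21 ± 0.16 (adjusted p = 9.61e-05). AT1G72890 averaged 4.06 in sco3phyb, 4.77 in phyb, 5.37 in sco3 and 5.50 in Col-0, and AT4G19530 averaged 7.40 in sco3phyb, 7.59 in phyb, 8.38 in sco3 and 8.61 in Col-0. In phyb against Col-0 they differed by -0.73 and -1.02, so most of the step of AT4G19530 was present in phyb. CSA1 differed by -0.53 there, but it was chosen as low in sco3phyb alone. Its share of the step in phyb is therefore not set against theirs. Among those that rose, AT5G58120 was higher by 1.56 ± 0.25 (adjusted p = 4.39e-04) and AT3G44630 by 1.27 ± 0.21 (adjusted p = 5.19e-04). AT5G40910 rose by 0.83 ± 0.14 (adjusted p = 8.01e-04) and AT5G45060 by 0.73 ± 0.20 (adjusted p = 0.016). The call of AT5G45060 is lost in 2 of the 12 fits that left out 1 array, with an adjusted p of up to 0.0763, without sco3phyb replicate 2.

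**Figure D5:**
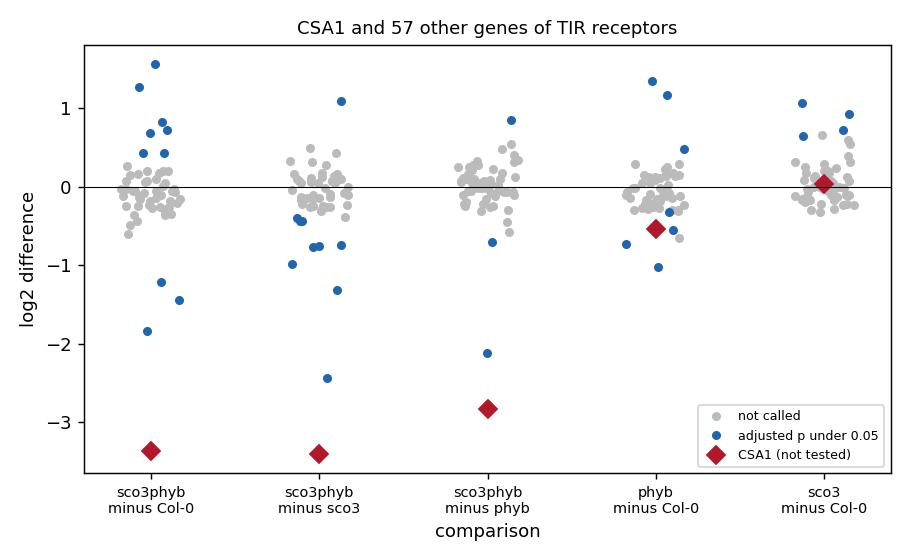
Log2 difference in 5 comparisons for CSA1 (diamonds) and the 57 other measured TIR receptor genes, 1 point per gene, blue for an adjusted p under 0.05. CSA1, which was chosen for its low sco3phyb signal, is the lowest point in sco3phyb against Col-0, sco3 and phyb, at -3.37, -3.40 and -2.84. It lies among the other genes in phyb and in sco3 against Col-0.

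Few genes that act with CSA1 could be followed, since 12 of the 93 genes on 7 lists of related genes had a named probe set. Of EDS1 with its partners and helpers, 3 of 13 were measured. Of these, 1 passed the test in sco3phyb against Col-0, where 29.7% of all probe sets did. SGT1A, a co-chaperone of immune receptors, rose by 1.36 ± 0.12 (limma, adjusted p = 4.79e-06), and it was also high in phyb, at 1.17 ± 0.12 over Col-0. SAG101, a partner of EDS1, differed by -0.15 ± 0.15, and EDS1B (AT3G48080) by 0.07 ± 0.17, and neither passed. Thus no measured gene of that list had the pattern of CSA1, though EDS1B, with a Col-0 mean of 2.19, lay too near the floor to show it.

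The proteins that the CSA1 pair guards were represented by 2 of 12 genes of the BAK1 and BIR list. BIR3 (AT1G27190), which holds BAK1 in check, averaged 6.65 in sco3phyb and 6.52 in Col-0, and BIR4 (AT1G69990) averaged 2.45 in sco3phyb and 2.69 in Col-0. Neither passed the test, where 29.7% of all probe sets did. Of 12 named TIR genes with a known part in immunity, SOC3 (AT1G17600) and TN2 (AT1G17615) were measured. Their differences of -0.24 ± 0.13 and -0.06 ± 0.14 did not pass, and neither signal exceeded 2.62 on any array. Of the 7 genes of the DA1 family, to which the end of CHS3 is related, DAR1 (AT4G36860) was measured and fell by 0.54 ± 0.16 (adjusted p = 0.0192). That call was lost in 2 of the 12 fits that left out 1 array, with an adjusted p of up to 0.0614, without sco3phyb replicate 2. None of the 18 salicylic acid genes and none of the 9 photoreceptor genes on their lists had a named probe set.

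The shade link in the name of CSA1 was followed through 4 of 22 shade-avoidance genes. HAT2, a homeodomain protein that shade induces, rose by 1.31 ± 0.20 in sco3phyb against Col-0 (limma, adjusted p = 3.23e-04), and IAA29, an auxin response repressor, by 1.27 ± 0.31 (adjusted p = 0.00723). Both were high in phyb as well, where CSA1 was 1.45-fold below Col-0: HAT2 averaged 7.57 in sco3phyb, 7.65 in phyb, 5.84 in sco3 and 6.27 in Col-0. IAA29 averaged 5.66 in sco3phyb, 6.56 in phyb, 3.32 in sco3 and 4.39 in Col-0. YUC2, an auxin synthesis enzyme, differed by 0.30 ± 0.21 and did not pass. FHL, which carries phytochrome A into the nucleus, gave 2.96, 2.59 and 2.88 in sco3phyb, against 4.54, 3.58 and 3.74 in phyb, 2.92, 3.60 and 3.17 in sco3, and 3.09, 2.84 and 3.10 in Col-0. FHL fell by 1.14 ± 0.23 in sco3phyb against phyb (adjusted p = 0.00512), and its sco3phyb arrays overlapped those of Col-0.

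Markers of single cell types were checked beside CSA1, with 6 of 19 genes measured. Of the guard cell markers, 2 of 5 were measured, FAMA (listed as FMA) and GC1 (AT1G22690). Both passed the test in sco3phyb against Col-0, where 29.7% of all probe sets passed, 12.9% of them all lower. FAMA fell by 0.50 ± 0.17 (limma, adjusted p = 0.0444) and GC1 fell by 1.05 ± 0.24 (adjusted p = 0.00511). The call of FAMA was lost in 7 of the 12 fits that left out 1 array, with an adjusted p of up to 0.147 without Col-0 replicate 3. Their mean log2 signal per array ran between 6.62 and 6.75 in sco3phyb, between 6.19 and 6.57 in phyb, between 6.89 and 7.09 in sco3 and between 7.22 and 7.99 in Col-0. In sco3phyb against phyb neither marker passed the test (limma, adjusted p = 0.173 for FAMA and 0.578 for GC1), where 14.9% of all probe sets did. Of the mesophyll markers, 2 of 5 were measured: against Col-0, LHCB4.2 fell by 0.97 ± 0.10 (adjusted p = 2.06e-05) and RCA differed by 0.15 ± 0.09. Against phyb, LHCB4.2 passed the test at a log2 difference of -0.35 ± 0.10 (limma, adjusted p = 0.0348). That call was lost in 5 of the 12 fits that left out 1 array, and RCA, at 0.04 ± 0.09, did not pass. Of the root hair markers, EXPA7 and EXPA18 were measured of 4, and their differences from Col-0, of -0.88 ± 0.37 and -0.31 ± 0.38, did not pass. Against phyb, EXPA7 passed at -1.22 ± 0.37 (limma, adjusted p = 0.0427), a call lost in 7 of the 12 fits that left out 1 array. EXPA18, at -0.96 ± 0.38 against phyb, did not pass. The 5 seed markers had no named probe set. The part of these shifts in the CSA1 signal was not tested.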

How the data were processed

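The 12 Affymetrix ATH1 arrays hold 4 genotypes with 3 labelled biological replicates each. The deposited values are log2 RMA signals per probe set, and the authors used Partek and RMA per the submitters' processing notes. No version or setting of either is given in the sources used here. No further transformation was applied. Arrays have no read depth, so the number of arrays limits the precision, and p-values measure the spread between these replicates. No batch or scan time is given.

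After 64 control probe sets were left out of 22810, 22746 were fitted in 1 linear model with a mean per genotype and 8 residual degrees of freedom (limma 3.58.1, R 4.3.3, version 1.17.8 of data.table). P-values were two-sided, adjusted by Benjamini-Hochberg over all probe sets per contrast, and called under 0.05; SEs are the moderated ones. The same steps were tested on simulated data. The platform annotation gave 1 gene to 13513 probe sets, several to 503 and none to 8730. A gene with several probe sets was counted by the one with the highest mean, and 13217 genes had a nuclear position in TAIR10.1, from RefSeq's list of genes.

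CSA1, the lists and the rules were chosen with earlier results of these data known. CSA1 and the 8 genes closest to it by root mean square difference over the arrays therefore carry no p-value. AT1G69550, among the 8 closest by the 4 genotype means, was tested as a member of the TIR receptor list. That list was written after some values were known, so the p-values of AT1G69550 are a description. Named were the 8 genes closest to CSA1, the 3 nearest measured genes on each side and up to 4 called members per list in each direction; all measured members of the small lists, AT5G17700, the genes at the gap limit and those next by gap were added after their values were seen. The TIR receptor list replaced a planned choice by product text, which was not at hand. Alternatives were 2 scalings, leaving out the dimmest 40% of probe sets, robust fitting with a trend of variance on mean, fitting 2 genotypes alone, the replicate number as a block, each array left out and, chosen after seeing the data, other gap limits. Arrays of the same replicate number deviated together no more than others did (18 pairs, r between -0.27 and 0.15, against 36 pairs, r between -0.20 and 0.31). The numbers were therefore not used as pairs, though these values cannot show that samples were grown or handled apart.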

Additional observations from a re-analysis of the deposited data

Results flagged for a closer look

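For 3 genes described beside CSA1, the difference that sco3 made in the phyb background was not the one it made with intact PHYB, by the interaction term of the limma fit. AT1G69550, the TIR receptor gene closest to CSA1 in its drop, had an interaction of -2.72 ± 0.35 (adjusted p = 7.36e-04), and its adjusted p stayed at or under 0.0039 when each array was left out in turn. FHL had -1.36 ± 0.33 (adjusted p = 0.0315), which missed the threshold in 6 of 12 such fits, with an adjusted p of up to 0.0843. AT5G17910, the nearest measured gene after CSA1, had -0.62 ± 0.16 (adjusted p = 0.042), which missed the threshold in 10 of 12, with up to 0.0969. AT1G69550 came from a list written after some values were known, so its p-values are a description. The causes were not tested.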

How the results depend on the processing

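Under every alternative run, the CSA1 differences of sco3phyb kept their sign: -3.50 to -3.26 against Col-0, -3.58 to -3.29 against sco3 and -2.93 to -2.72 against phyb. The value of -3.58 came with each array centred on its median, which moved the median of all probe sets to -0.15 for sco3phyb against Col-0, -0.21 against sco3 and -0.20 for phyb against Col-0. Centring also put the higher share of all calls at 26.4% against 54.1% (sco3phyb against sco3), 67.4% against 56.5% (sco3 against Col-0) and 30.9% against 52.5% (phyb against Col-0). In sco3phyb against Col-0 it raised the TIR genes called to 17 and the calls over all probe sets to 7774. With each array left out in turn, CSA1 ran between -3.46 and -3.26 against Col-0, -3.49 and -3.29 against sco3, -2.93 and -2.72 against phyb, -0.04 and 0.10 for sco3 against Col-0, and -0.65 and -0.45 for phyb against Col-0. Calls over all probe sets ran between 2218 and 4877 for sco3phyb against phyb, 396 and 1463 for sco3 against Col-0, and 661 and 1582 for the interaction. Counts fell by over 1.5 times without sco3phyb replicate 3 (2243), phyb replicate 2 (2218) or phyb replicate 3 (2261) for sco3phyb against phyb. For sco3 against Col-0 they did so without sco3phyb replicate 3 (745) or sco3 replicate 1 (488), 2 (526) or 3 (396). For the interaction they did so without sco3phyb replicate 2 (755) or 3 (716) or phyb replicate 2 (761) or 3 (661). Fitting sco3 and Col-0 alone left 117 calls. A gap of at least 0.5 gave 25 chromosome 5 genes low in sco3phyb alone, and one of at least 2 gave 5. The replicate block left the CSA1 differences as they were by construction, and gave 6527 calls against Col-0, 6410 against sco3 and 3204 against phyb for sco3phyb, 888 for sco3 against Col-0 and 1040 for the interaction. FMA lost its call in sco3phyb against Col-0 in 7 of the 12 fits without 1 array (adjusted p of up to 0.147, without Col-0 replicate 3), at 0.0542 with the variance trend and at 0.0791 with those 2 genotypes alone. Alternatives for CHS3 and the planned product-text family were not run, since no probe set was named for CHS3 and no product text was at hand. The cause of these shifts was not tested.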
